A study of Homo sapiens with 16 samples.

Results

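Gene expression of the 7TGP-POS subline of MDA-MB-436 was compared with that of its 7TGP-NEG subline, both grown in standard serum (10% FBS) and harvested on day 6. MDA-MB-436 is an established triple-negative breast cancer (TNBC) line that the study describes as mesenchymal. Both sublines carry the 7TGP plasmid, in which Tcf/Lef binding sites drive eGFP, and both had been stably transfected, selected with puromycin and enriched by repeated sorting on eGFP, the POS subline for bright and the NEG subline for dark cells. The comparison takes 4 of the 16 bulk RNA-Seq libraries of the series, 2 biological replicates per subline, and every protein-coding gene with at least 10 counts summed over the 8 standard serum libraries, which left 15414 genes. The other 12 libraries are the same pair of sublines in low serum (0.5% FBS, day 3) and the corresponding MDA-MB-231 sublines, another TNBC line, in both sera. By the study's methods the MDA-MB-231 sublines were grown in another culture medium than those of MDA-MB-436. Each subline is 1 sorted population, so that reporter state cannot be told apart from anything else in which the sorted populations differ, and p-values measure the spread between cultures of these sublines. The eGFP transcript is not a gene of the annotation used for the counts, so the sort itself was not checked here.

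In canonical Wnt signaling, ligands bound to Frizzled and LRP receptors protect β-catenin from degradation, and β-catenin then joins TCF/LEF factors on DNA. Its targets include feedback inhibitors of the pathway itself (AXIN2, NKD1, NKD2, DKK1, RNF43, ZNRF3) next to regulators of growth such as MYC and CCND1, and which of them respond is known to depend on the tissue. In TNBC the pathway has been linked to mesenchymal traits, stemness and inflammatory signals.

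The 4 libraries held between 33770432 and 46044073 counts, of which 96.8% to 97.3% fell on the genes tested, and 13226 to 13562 genes had at least 10 counts. Expression is given as CPM, the count scaled to the library total, after TMM scaling, for replicates 1 and 2 in that order, and is compared between libraries and not between genes, since CPM does not correct for gene length. A floor of 3 counts per library corresponded to 0.0600 to 0.0847 CPM. Where a subline was at the floor, a fold of at least some value is the mean CPM of the other subline over the mean floor. It does not hold for each pair of libraries. The labelled cell type was checked first. The mesenchymal markers VIM (633 and 676 CPM in NEG, 887 and 949 CPM in POS) and ZEB1 (29.1 and 29.5 CPM and 35.3 and 28.6 CPM) were present in every library, as were the keratins KRT8 and KRT18, while CDH1, EPCAM and KRT19 were at 2.66 CPM or less. ESR1 and PGR lay at or below 0.338 CPM, and ERBB2 was at like levels (53.3 and 53.3 CPM in NEG, 52.0 and 53.2 CPM in POS, log2 fold change -0.02). Of 11 markers of leukocytes, endothelium and fibroblasts or pericytes, 6 had enough counts to be tested and 1 was called, the pericyte marker RGS5 (2.03 and 1.59 CPM in NEG, 4.08 and 3.79 CPM in POS). CD14 lay between 2.86 and 5.74 CPM and PTPRC, LYZ, VWF and LUM at 0.290 CPM or less, with no counts for LUM in NEG. The 6 summed to 7.72 and 8.07 CPM in NEG and to 7.30 and 8.38 CPM in POS, and the other 5 were too low to be tested or not matched.

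A gene was called differentially expressed (DEG) when its adjusted p was under 0.05 and its log2 fold change 1 or more in size (quasi-likelihood test of edgeR, p adjusted by Benjamini-Hochberg over all genes tested). By this rule 1932 of 15414 genes (12.5%) were DEGs. Of these, 998 (6.47% of the genes tested) were upregulated and 934 (6.06%) downregulated in MDA-MB-436 7TGP-POS. In 1413 genes (9.17% of those tested, or 73.1% of the DEGs) both POS libraries lay at least 1 log2 unit beyond both NEG libraries, above them in 767 (4.98%) and below them in 646 (4.19%). An adjusted p under 0.05 alone was reached by 7631 genes (49.5%). In 312 DEGs 1 subline was at or under the floor, which was NEG in 234 and POS in 78. Changes of 3 log2 units or more were seen in 289 upregulated and 109 downregulated genes.

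Where no library had fewer than 10 counts, the largest increase was that of ALDH1L2 (ENSG00000136010, chromosome 12, 105413562 to 105501421 on GRCh37), the mitochondrial 10-formyl-tetrahydrofolate dehydrogenase. It was at 0.395 and 0.459 CPM in NEG and at 64.7 and 53.7 CPM in POS (log2 fold change 7.10, SE 0.21, adjusted p = 4.21e-12). SV2A, a synaptic vesicle glycoprotein, went from 0.395 and 0.362 CPM to 30.4 and 28.9 CPM (log2 fold change 6.28). CUL5, the scaffold of a cullin-RING ubiquitin ligase, went from 0.903 and 0.700 CPM to 49.9 and 41.3 CPM (log2 fold change 5.84). These 3 genes were below 1 CPM in both NEG libraries and well above it in both POS libraries. IGFBP5, which binds insulin-like growth factors, rose from 5.50 and 6.13 CPM to 200.3 and 181 CPM, and SULF2, which trims sulfate groups from heparan sulfate, from 3.47 and 2.78 CPM to 99.6 and 101 CPM (log2 fold changes 5.03 and 5.01). In the other direction IFI27 fell most, as described below with the interferon-stimulated genes. SH3BGRL (chromosome X, 80457601 to 80554046) went from 39.1 and 38.1 CPM to 1.56 and 1.41 CPM (log2 fold change -4.69, SE 0.11, adjusted p = 2.11e-15). SNCG, which encodes γ-synuclein, went from 12.3 and 10.1 CPM to 0.400 and 0.471 CPM (log2 fold change -4.68). By CPM, the most abundant downregulated genes were PSAP, the precursor of the saposins (3835 and 3543 CPM in NEG, 1727 and 1723 CPM in POS), and the ribosomal protein gene RPL37 (2983 and 2516 CPM in NEG, 1261 and 1216 CPM in POS).

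**Figure D1:**
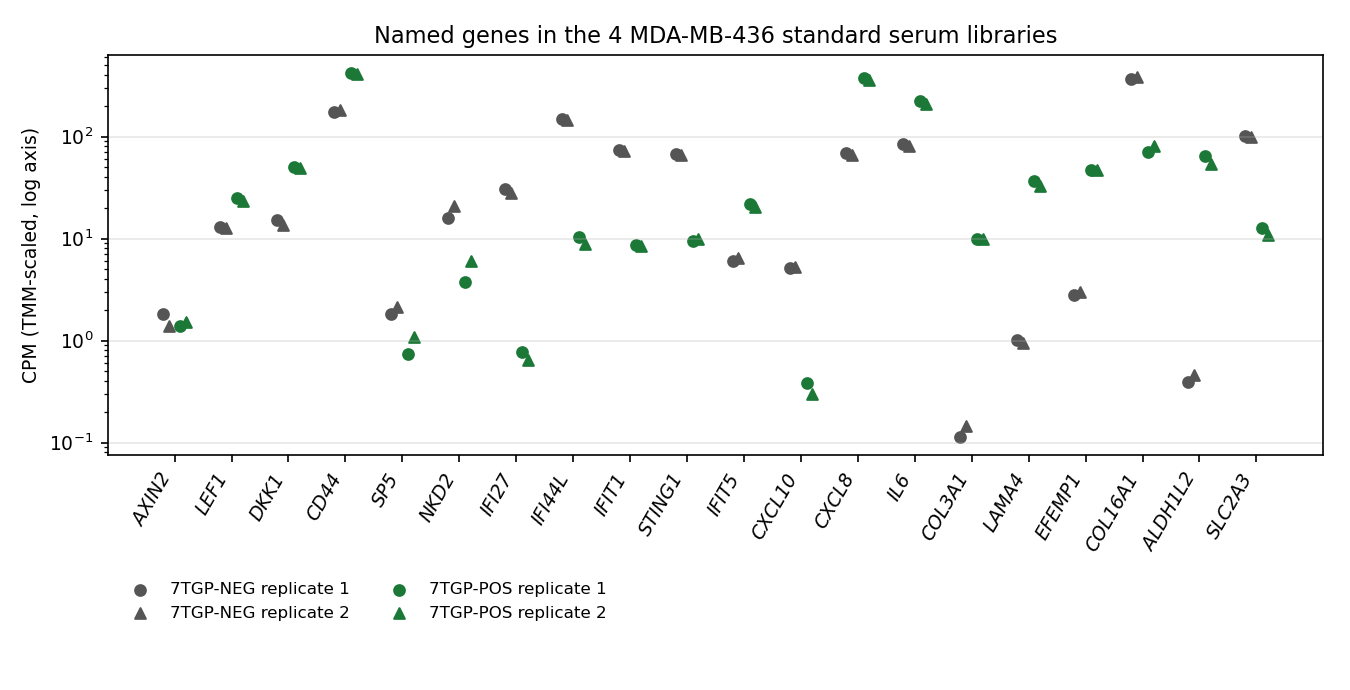
CPM after TMM scaling (log axis) of 20 named genes in each of the 4 MDA-MB-436 standard serum libraries, grey for 7TGP-NEG and green for 7TGP-POS, circles for replicate 1 and triangles for replicate 2. Replicates sit close together, and for 19 of the genes the sublines do not overlap. The exception is AXIN2.

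Canonical Wnt targets moved both ways. Of 27 tested, 4 were upregulated, 4 downregulated and 19 not called (29.6% called beside 12.5% of all genes), with a median log2 fold change of 0.15 where the median of all genes tested was 0.0047. Without POS replicate 2 the median of the targets was -0.10, so that its sign rested on that library, and without NEG replicate 1 it was 0.032. AXIN2, the target used most widely as a readout of the pathway, was at 1.83 and 1.38 CPM in NEG and 1.40 and 1.54 CPM in POS (log2 fold change -0.12, SE 0.22, adjusted p = 0.684), and the libraries of the sublines overlapped. ZNRF3, which removes Frizzled receptors from the cell surface, was at 17.8 and 17.6 CPM in NEG and 20.1 and 20.9 CPM in POS (log2 fold change 0.21, adjusted p = 0.0764). TCF7, CCND1, LGR5 and NKD1 were not called either, with log2 fold changes of -0.077, 0.18, -0.90 and -0.72. LEF1 (13.1 and 12.8 CPM in NEG, 24.9 and 23.3 CPM in POS) and MYC (95.04 and 97.8 CPM in NEG, 167 and 194 CPM in POS) were higher in both POS libraries and passed the test on p (adjusted p = 9.13e-07 and 5.87e-08) but not the limit on the fold change (log2 fold changes 0.90 and 0.90).

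Among the 4 upregulated targets, DKK1, a secreted inhibitor that blocks LRP receptors, was at 15.4 and 13.6 CPM in NEG and 50.4 and 49.2 CPM in POS (log2 fold change 1.78, SE 0.082, adjusted p = 6.21e-12). CD44, the hyaluronan receptor, was at 176 and 184 CPM and 417 and 412 CPM (log2 fold change 1.21, SE 0.074, adjusted p = 3.03e-10). The transcription factor gene SOX9 was at 21.6 and 24.1 CPM and 49.3 and 52.8 CPM, and the receptor gene TNFRSF19 at 0.367 and 0.410 CPM and 2.16 and 2.18 CPM (log2 fold changes 1.16 and 2.47). In each of these 4 genes both POS libraries were more than 1 log2 unit above both NEG libraries. The 4 downregulated targets were the ephrin receptor gene EPHB3 (5.96 and 5.55 CPM in NEG, 1.78 and 1.86 CPM in POS), NKD2, which binds Dishevelled (16.1 and 20.9 CPM and 3.72 and 5.98 CPM), the transcription factor gene SP5 (1.81 and 2.15 CPM and 0.740 and 1.09 CPM) and RNF43, the partner of ZNRF3 in Frizzled turnover (0.367 and 0.145 CPM and 0.0200 and 0.0744 CPM). The log2 fold changes were -1.66 for EPHB3, -1.94 for NKD2 and -1.13 for SP5. RNF43 was at the floor in POS and at least 3.81-fold lower against it. SP5 and RNF43 did not keep a full log2 unit between every pair of libraries, and with offsets for GC content SP5 was no longer called (log2 fold change -0.90). NKD2 lies on the short arm of chromosome 5, where many genes were lower in POS (below). Of the 27 targets, 16 had a promoter in the RefSeq table (GRCh38.p14), and in the 250 bases before the gene start the letters ATCAAAG, a core TCF/LEF motif, were found on either strand in 1 of them, against 1.32% of all 12293 promoters of tested genes. That gene was SP5. The stretch is shown because it is the one match in a target that changed, with the motif in capitals as its reverse complement, at chr2:170715208-170715254 on the plus strand.
SP5: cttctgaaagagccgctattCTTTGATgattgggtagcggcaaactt
Upregulated DEGs held the motif in 1.04% and downregulated DEGs in 1.15% of their promoters.

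Upstream of the targets, several secreted antagonists rose. Of 8 antagonists tested, 5 were upregulated and 3 not called (62.5% called beside 12.5% of all genes), while DESeq2 called 3 of the 8, without SFRP4 and without SOSTDC1, to which it gave no adjusted p. Besides DKK1 these were DKK3 (0.282 and 0.217 CPM in NEG, 1.28 and 1.24 CPM in POS), DKK2 (0.254 and 0.386 CPM and 1.52 and 1.24 CPM), SFRP4 (0.113 and 0.0966 CPM and 0.420 and 0.595 CPM), which binds Wnt ligands, and SOSTDC1 (0 and 0.0241 CPM and 0.220 and 0.174 CPM), all at low levels except DKK1. None of the 4 R-spondins and 2 DKK receptors tested in the same list was called by edgeR or DESeq2. At an unadjusted p under 0.05, 1 R-spondin was higher and 1 DKK receptor lower. Over the whole list edgeR thus called 5 of 14 genes (35.7%). Of 13 ligands tested, 1 was up- and 1 downregulated, and of 15 receptors likewise (15.4% and 13.3% called). ROR2, the tyrosine kinase receptor of non-canonical Wnt ligands, was at 2.00 and 2.05 CPM in NEG and 6.98 and 9.07 CPM in POS (log2 fold change 1.98, SE 0.19, adjusted p = 2.85e-07). WNT3A, a canonical ligand, was at 1.89 and 2.15 CPM and 0.400 and 0.471 CPM (log2 fold change -2.22). FZD10 was at 1.55 and 1.38 CPM in NEG and at the floor in POS (0.0600 and 0 CPM), at least 21.8-fold lower in POS against the floor. None of the 24 genes of β-catenin, the TCF/LEF factors, their cofactors and the destruction complex was called by edgeR's test or by DESeq2, although 9 were higher and 5 lower at an unadjusted p under 0.05.

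**Figure D2:**
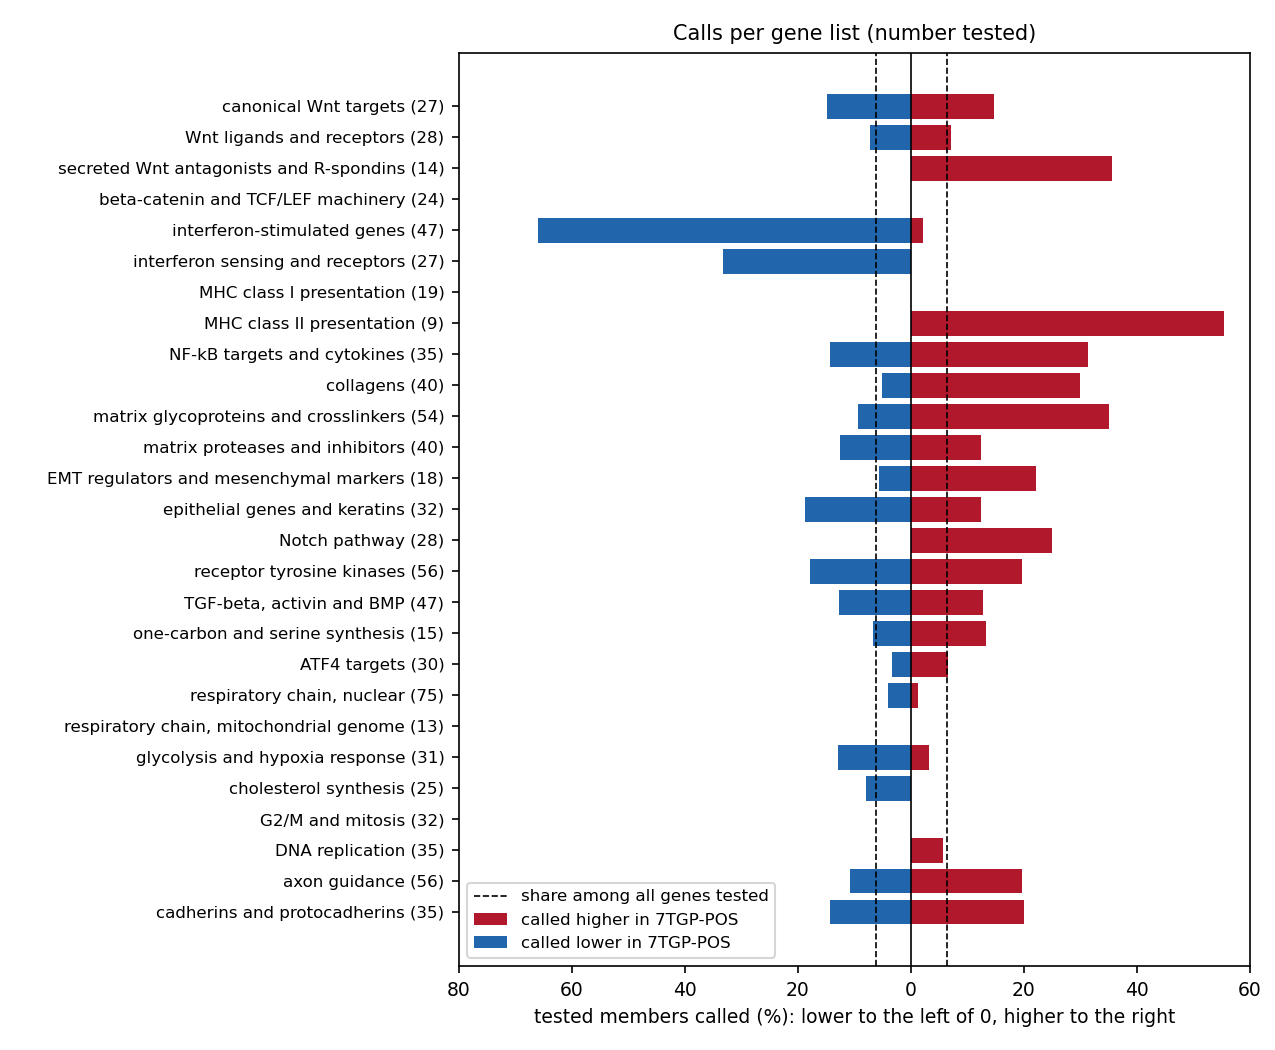
Share of tested members called lower (blue, to the left) or higher (red, to the right) in 7TGP-POS for each gene list, with the number of members tested in parentheses. Dashed lines mark the shares among all genes tested, 6.06% lower and 6.47% higher. Interferon-stimulated genes extend farthest to the left, and the few MHC class II genes farthest to the right. The list of secreted Wnt antagonists and R-spondins follows on the right, then matrix glycoproteins, NF-κB targets and collagens.

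Interferon-stimulated genes were lower in the POS subline. Many of these genes carry an interferon-stimulated response element (ISRE) in their promoters, and they are switched on after interferon or viral RNA is sensed, and encode antiviral effectors. Of 47 tested, 31 were downregulated, 1 was upregulated and 15 were not called (68.1% called beside 12.5% of all genes), with a median log2 fold change of -1.61 (-1.05 with limma on log2(TPM + 1)), and 26 of the 31 kept at least 1 log2 unit between every POS and every NEG library. Without either POS library 30 were called lower. IFI27 (ENSG00000165949, chromosome 14, 94571182 to 94583032), a small membrane protein of mitochondria, was at 30.5 and 27.98 CPM in NEG and 0.780 and 0.645 CPM in POS (log2 fold change -5.34, SE 0.13, adjusted p = 2.74e-15). IFI44L was at 150.3 and 145 CPM and 10.4 and 8.83 CPM (log2 fold change -3.93, SE 0.11, adjusted p = 2.82e-14). OAS1, whose product activates RNase L, was at 16.4 and 17.7 CPM and 1.02 and 0.942 CPM (log2 fold change -4.11). In these 3 genes both POS libraries were far below both NEG libraries, and replicates lay close together. IFIT1, which binds foreign 5′ RNA ends, was at 73.6 and 71.7 CPM and 8.56 and 8.43 CPM (log2 fold change -3.10). The mitochondrial IFI6 was at 247 and 243 CPM and 24.7 and 30.6 CPM, IFI44 at 198 and 193 CPM and 34.6 and 32.3 CPM, and the virion tether BST2 at 411 and 375 CPM and 99.1 and 92.4 CPM (log2 fold changes -3.15, -2.55 and -2.04). The ubiquitin-like modifier gene ISG15 was at 158 and 172 CPM in NEG and 27.8 and 44.8 CPM in POS (log2 fold change -2.19). The exception in direction was IFIT5, a relative of IFIT1, at 5.98 and 6.52 CPM in NEG and 21.6 and 20.2 CPM in POS (log2 fold change 1.74, SE 0.10, adjusted p = 1.18e-10). MX1, a GTPase that traps influenza virus, was at 3.98 and 3.89 CPM and 8.28 and 7.29 CPM and was not called (log2 fold change 0.99).

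The ISRE core (GAAANN directly followed by GAAA, any base at N, either strand, overlapping matches counted) was found in the 250 bases before the gene start in 22 of the 38 interferon-stimulated genes with a RefSeq promoter (57.9%), against 2.49% of all 12293 promoters of tested genes. Among those lower in POS it was found in 15 of 23, and among those not called in 6 of 14. Of all downregulated DEGs 4.73% and of all upregulated DEGs 2.35% held it. IFIT5, the member that rose, held 2 matches as well. IFI44L held 2 in separate stretches of the same letters, of which the one nearer to the gene start is shown. The stretches below show the matches in capitals (TTTC runs are the reverse complement) in genes with large decreases and in IFIT5 for comparison, on GRCh38.p14, each 5′ to 3′ along its gene, at chr14:94110608-94110670, chr1:78620355-78620404, chr10:89392487-89392549, chr1:1013364-1013419 and chr10:89414503-89414567 on the plus strand and chr1:27672256-27672368 and chr19:17405725-17405780 on the minus strand.
IFI27: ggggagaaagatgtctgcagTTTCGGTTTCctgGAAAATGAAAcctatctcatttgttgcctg
IFI44L: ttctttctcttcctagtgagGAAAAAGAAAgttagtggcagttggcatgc
IFIT1: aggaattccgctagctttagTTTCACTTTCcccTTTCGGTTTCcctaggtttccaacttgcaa
ISG15: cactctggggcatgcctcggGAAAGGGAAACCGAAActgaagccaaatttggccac
IFI6: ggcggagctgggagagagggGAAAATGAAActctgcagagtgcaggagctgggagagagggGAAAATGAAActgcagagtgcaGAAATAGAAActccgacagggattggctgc
BST2: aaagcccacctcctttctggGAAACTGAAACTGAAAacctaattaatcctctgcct
IFIT5: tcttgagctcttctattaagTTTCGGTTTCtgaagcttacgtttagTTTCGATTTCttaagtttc

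Of 27 genes for sensors, adaptors, receptors, regulators and interferons tested, 9 were downregulated (33.3% beside 6.06% of all genes) and 18 not called by edgeR's test, and DESeq2 called 7 lower. Of the 8 sensor and adaptor genes, which detect nucleic acids upstream of interferon, 4 were called lower and 4 not called. STING1, the adaptor of cytosolic DNA sensing, was at 68.3 and 65.3 CPM in NEG and 9.52 and 9.82 CPM in POS (log2 fold change -2.79, SE 0.088, adjusted p = 2.95e-14). The RNA sensor genes IFIH1 (87.5 and 90.01 CPM in NEG, 21.7 and 18.99 CPM in POS), RIGI (103 and 98.7 CPM and 46.2 and 42.3 CPM) and DHX58 (36.1 and 35.0 CPM and 10.1 and 11.4 CPM) had log2 fold changes of -2.12, -1.19 and -1.73. IFNL1, a type III interferon, was at 2.88 and 2.75 CPM in NEG and 0.360 and 0.273 CPM in POS (log2 fold change -3.12). Of 7 interferon genes listed, 4 had enough counts to be tested. Each of the 4 was called lower by edgeR and 2 of them by DESeq2. A gene scarce elsewhere can pass the count filter through the NEG libraries alone. These 4 of the 9 calls are therefore not independent of the filter. Of the 9 interferon receptor and JAK kinase genes neither tool called any, with 2 higher and 4 lower at an unadjusted p under 0.05 (median log2 fold change -0.12). SOCS3, a feedback inhibitor of JAK kinases, was at 79.9 and 79.8 CPM and 32.3 and 34.2 CPM (log2 fold change -1.26). None of the 19 genes of MHC class I presentation tested was called by edgeR or DESeq2, with 13 lower and 2 higher at an unadjusted p under 0.05 and a median log2 fold change of -0.37 (-0.22 with offsets for GC content). MHC class II genes were barely transcribed, and 5 of 9 tested were upregulated from near 0 (55.6% beside 6.47% of all genes). A gene near 0 in NEG can pass the count filter mainly through the POS libraries, so this share is not independent of the filter. CIITA, their master regulator, had no counts in NEG and was at 0.320 and 0.521 CPM in POS, at least 5.35-fold higher against the floor, and CD74, the invariant chain, was at 0.113 and 0.290 CPM in NEG and 1.12 and 1.14 CPM in POS (log2 fold change 2.42).

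**Figure D3:**
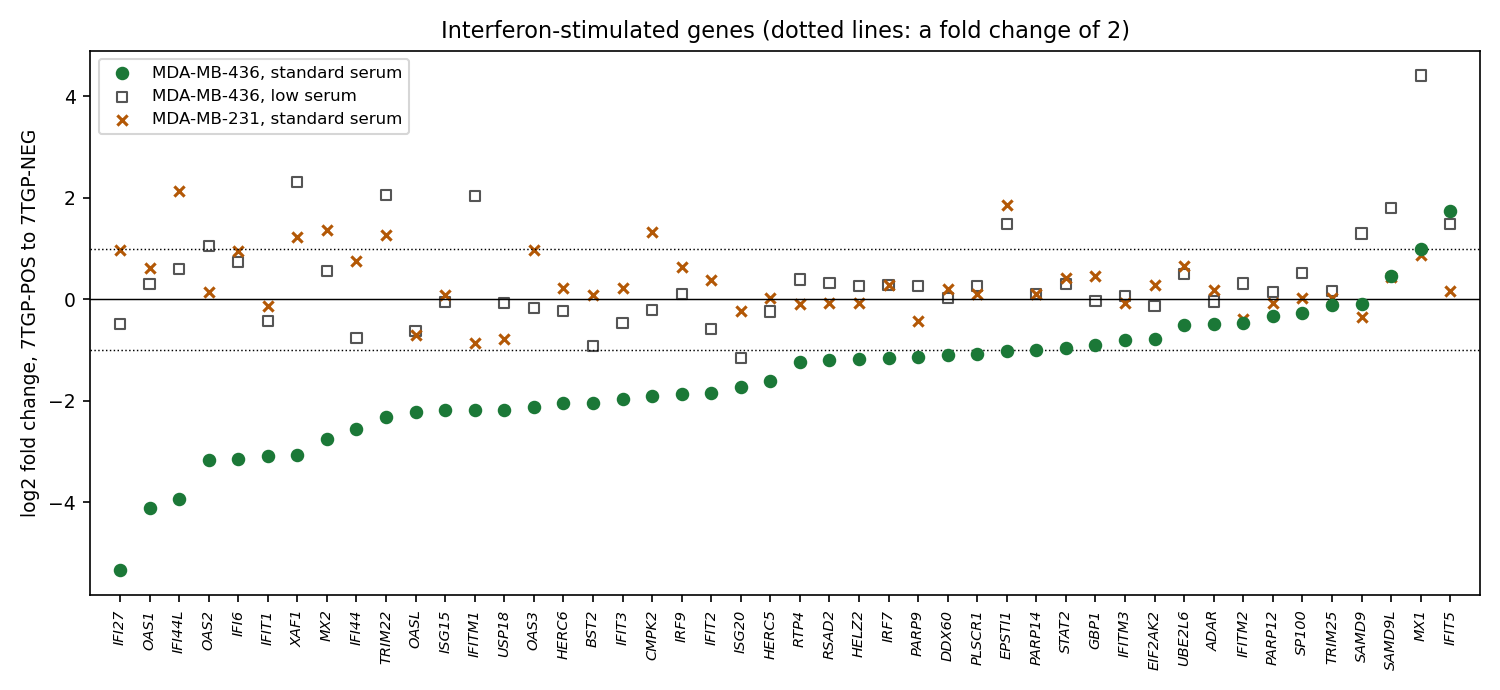
Log2 fold change (7TGP-POS to 7TGP-NEG) of 46 of the interferon-stimulated genes tested in MDA-MB-436 in standard serum (filled green circles), MDA-MB-436 in low serum (open squares) and MDA-MB-231 in standard serum (orange crosses), with genes ordered by the first. Dotted lines mark a fold change of 2. The green points run from -5.34 for IFI27 to 1.74 for IFIT5, while most squares and crosses lie between the dotted lines (36 and 40 of 46).

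The same genes gave other values in the other comparisons. In MDA-MB-231 in standard serum 5 of the 47 interferon-stimulated genes were upregulated (median log2 fold change 0.19), where 4.96% of all genes were called higher and 2.72% lower. For 32 of them the change in MDA-MB-436 differed from that in MDA-MB-231 by the interaction test in the same fit (13.8% of all genes did so). For IFI27 the difference between the lines was -6.31 on the log2 scale (SE 0.16, adjusted p = 6.8e-15). In low serum 8 of the 47 were upregulated and 1 downregulated in the POS subline of MDA-MB-436 (median 0.16), where 6.5% of all genes were called higher and 4.09% lower. IFI27 was there at 7.33 and 8.49 CPM in NEG and 6.06 and 5.21 CPM in POS, and IFI44L at 183 and 167 CPM and 254 and 275 CPM. Of the DEGs of standard serum, 6 were DEGs of the opposite direction in low serum, 5 of them lower in standard and higher in low serum. These 5, picked out after their values were seen, were the interferon-stimulated genes XAF1, OAS2, TRIM22 and IFITM1 and the tight junction gene CLDN5. XAF1 was at 6.29 and 6.98 CPM in NEG and 0.800 and 0.769 CPM in POS in standard serum, and at 1.99 and 1.77 CPM and 8.63 and 10.2 CPM in low serum (log2 fold changes -3.07 and 2.31). The remaining gene was PTPN20B, at 0.0847 and 0.0966 CPM and 0.300 and 0.298 CPM in standard serum. The calls of CLDN5 and PTPN20B were lost with DESeq2 (adjusted p = 0.416 and 0.390) and without any 1 of the 4 libraries. Serum, days in culture, library preparation and sequencer differed together between the sera, and no test was made between them.

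Cytokines and other NF-κB targets were split. Of 35 tested, 11 were upregulated and 5 downregulated (45.7% called beside 12.5% of all genes). Chemokines that attract neutrophils through CXCR2 rose: CXCL8 was at 69.2 and 66.3 CPM in NEG and 372 and 357 CPM in POS (log2 fold change 2.43, SE 0.076, adjusted p = 2.85e-14), CXCL1 at 26.4 and 28.2 CPM and 95.8 and 104 CPM, and CXCL3 at 12.6 and 13.7 CPM and 38.2 and 44.7 CPM (log2 fold changes 1.87 and 1.66). CXCL5, another ligand of that receptor, went the other way, from 5.48 and 5.77 CPM to 0.560 and 0.421 CPM (log2 fold change -3.49). CXCL10 and CXCL11, interferon-induced ligands of CXCR3 on T cells, fell from 5.19 and 5.21 CPM to 0.380 and 0.298 CPM and from 3.84 and 3.57 CPM to 0.320 and 0.174 CPM (log2 fold changes -3.91 and -3.85). CCL20, the ligand of CCR6, fell from 36.7 and 36.3 CPM to 15.4 and 12.2 CPM. Of 9 other cytokines 4 rose and 5 were not called. IL6 was at 84.0 and 80.8 CPM in NEG and 225 and 210.3 CPM in POS, IL1B at 75.4 and 77.9 CPM and 192 and 181 CPM, and IL11 at 0.423 and 0.579 CPM and 7.46 and 8.60 CPM (log2 fold changes 1.40, 1.28 and 3.97). In every one of these genes the sublines kept at least 1 log2 unit apart. In MDA-MB-231 20 of the 35 rose (4.96% of all genes did so), CXCL10 and CXCL5 among them (log2 fold changes 2.80 and 2.10), and the differences between the lines were -6.71 and -5.60 (adjusted p = 1.06e-09 and 1.94e-06). For CXCL8, which rose by 2.43 on the log2 scale in MDA-MB-436 and by 2.58 in MDA-MB-231, the difference was -0.16 (SE 0.10, adjusted p = 0.244).

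More extracellular matrix genes rose than fell. Of 40 collagen genes tested, 12 were upregulated and 2 downregulated (35.0% called beside 12.5% of all genes, median log2 fold change 0.47). Of 54 matrix glycoproteins, laminins, proteoglycans and crosslinking enzymes, 19 rose and 5 fell (44.4% called, median 0.74). With limma on log2(TPM + 1), which draws low genes towards 0, the medians were 0.15 and 0.21. COL3A1 (chromosome 2, 189839099 to 189877472), a fibrillar collagen, was at 0.113 and 0.145 CPM in NEG and 9.96 and 9.94 CPM in POS (log2 fold change 6.22, SE 0.27, adjusted p = 2.54e-12). The fibril-associated COL12A1 was at 14.2 and 16.7 CPM and 171 and 144 CPM, and the fibrillar COL5A2 at 1.69 and 2.41 CPM and 16.5 and 14.0 CPM (log2 fold changes 3.35 and 2.88). LAMA4, a laminin α chain of vascular and other basement membranes, was at 1.02 and 0.941 CPM in NEG and 36.3 and 32.73 CPM in POS (log2 fold change 5.14, SE 0.15, adjusted p = 1.07e-14). EFEMP1, a fibulin, was at 2.79 and 3.02 CPM and 46.9 and 47.2 CPM (log2 fold change 4.01, SE 0.10, adjusted p = 2.8e-15). FBLN1 was at 15.0 and 14.0 CPM and 129 and 144 CPM, thrombospondin THBS1 at 9.65 and 9.49 CPM and 69.6 and 71.8 CPM, and the laminin β chain gene LAMB1 at 80.9 and 80.7 CPM and 292 and 263 CPM (log2 fold changes 3.24, 2.88 and 1.78). Of the 5 lysyl oxidase family genes that crosslink collagen, 3 rose, among them LOXL4 from 16.5 and 16.6 CPM to 87.4 and 99.3 CPM.

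The decreases in the matrix were of a few genes. COL22A1, a collagen of tissue junctions, fell from 82.7 and 83.6 CPM to 4.06 and 3.52 CPM (log2 fold change -4.45, SE 0.11, adjusted p = 2.82e-14), and the fibril-associated COL16A1 from 366 and 381 CPM to 70.1 and 80.7 CPM (log2 fold change -2.31, SE 0.10, adjusted p = 1.03e-11). LAMB3, a chain of an epithelial laminin, fell from 83.8 and 83.3 CPM to 22.1 and 23.1 CPM. Of 40 proteases and inhibitors tested 5 rose and 5 fell (25.0% called). The gelatinase gene MMP2 rose from 4.83 and 3.93 CPM to 45.2 and 43.6 CPM and the inhibitor gene TIMP3 from 5.53 and 5.67 CPM to 28.4 and 25.9 CPM, while the urokinase receptor gene PLAUR fell from 65.9 and 64.5 CPM to 18.8 and 22.9 CPM (log2 fold changes 3.35, 2.28 and -1.65). In low serum the log2 fold changes were 4.55 for COL3A1, 3.44 for COL12A1, 5.08 for LAMA4, 4.02 for EFEMP1 and -3.53 for COL22A1.

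Epithelial-mesenchymal transition (EMT) regulators did not move as a group. None of 8 EMT transcription factor genes tested was called by edgeR or DESeq2, with 2 higher and 2 lower at an unadjusted p under 0.05 (median log2 fold change 0.16). Of 10 mesenchymal markers 4 rose and 1 fell (50.0% called beside 12.5% of all genes). CDH11, a cadherin of mesenchymal cells, was at 3.47 and 3.38 CPM in NEG and 19.9 and 18.4 CPM in POS, and the ectonucleotidase gene NT5E at 23.1 and 22.4 CPM and 77.5 and 79.9 CPM (log2 fold changes 2.49 and 1.79). The marker that fell was S100A4, at 62.8 and 54.6 CPM and 17.1 and 16.5 CPM (log2 fold change -1.80). Among 32 epithelial genes and keratins, 4 rose and 6 fell (31.2% called). By group, 3 of 14 keratins rose and 1 fell, and 1 of 12 junction or adhesion genes rose and 3 fell. Of 6 epithelial regulators 2 fell. The epithelial genes named next are all from those that fell. JUP, the plakoglobin of desmosomes and adherens junctions and a relative of β-catenin, fell from 56.7 and 59.2 CPM to 8.10 and 10.4 CPM (log2 fold change -2.65, SE 0.10, adjusted p = 5.88e-13). The epithelial transcription factor gene ELF3 fell from 57.2 and 52.3 CPM to 19.5 and 21.1 CPM, and the claudin gene CLDN4 from 5.62 and 5.67 CPM to 2.30 and 2.603 CPM. Of 35 cadherins and protocadherins 7 rose and 5 fell (34.3% called, median log2 fold change 0.0). Among the 16 protocadherins 3 rose and 4 fell. The cadherin and protocadherin genes named next are all from those that rose. CDH13, a cadherin held by a lipid anchor, rose from 3.39 and 3.64 CPM to 46.7 and 44.1 CPM (log2 fold change 3.69, SE 0.12, adjusted p = 4.34e-14), CDH4 from 4.35 and 5.50 CPM to 21.0 and 21.9 CPM, and PCDH18 from no counts in NEG to 1.12 and 1.29 CPM in POS, at least 15.3-fold against the floor.

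The Notch pathway genes that were called rose. Of 28 tested, 7 were upregulated and 21 not called (25.0% called beside 12.5% of all genes, median log2 fold change 0.49), the count of calls being 7 by DESeq2 as well. Without POS replicate 2 the median was 0.31. At an unadjusted p under 0.05, 13 were higher and 2 lower. Of 9 targets, 4 rose. HES1 and HEYL, transcriptional repressors induced by cleaved Notch, were at 14.4 and 13.2 CPM and 0.141 and 0.0241 CPM in NEG and at 29.6 and 32.8 CPM and 2.00 and 2.18 CPM in POS. NRARP, a feedback inhibitor, was at 2.99 and 2.75 CPM in NEG and 7.46 and 7.39 CPM in POS, and HEY1 at 1.04 and 1.16 CPM and 2.52 and 2.73 CPM. The log2 fold changes were 1.18, 4.68, 1.37 and 1.24. DTX1, a ubiquitin ligase that modulates Notch, had no counts in NEG and was at 0.860 and 1.51 CPM in POS, at least 15.1-fold higher against the floor. Of 9 receptors and ligands, 1 was called. In low serum 8 of the 28 were upregulated (6.5% of all genes there).

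In the TGF-β, activin and BMP family 6 of 47 genes tested rose and 6 fell (25.5% called beside 12.5% of all genes). INHBA, the activin A subunit, was at 0.621 and 0.724 CPM in NEG and 16.1 and 13.6 CPM in POS (log2 fold change 4.46, SE 0.15, adjusted p = 6.48e-14). TGFB2 was at 13.2 and 13.6 CPM and 69.3 and 62.1 CPM, and its receptor gene TGFBR2 at 34.8 and 34.5 CPM and 82.7 and 75.9 CPM (log2 fold changes 2.29 and 1.19). On the BMP side, ID1, an immediate BMP target, fell from 15.9 and 17.7 CPM to 2.98 and 5.01 CPM, the BMP antagonist gene CHRD from 11.9 and 12.8 CPM to 3.80 and 5.16 CPM, and the type I receptor gene ACVRL1 from 0.677 and 0.917 CPM to 0.0200 and 0.0496 CPM, which is the floor (log2 fold changes -2.09 and -1.47, and at least 11.9-fold lower). SMAD6, which inhibits BMP signals, rose from 1.19 and 1.30 CPM to 2.82 and 4.07 CPM. Of the 5 target genes tested in this list ID1 alone was called, and 3 had a log2 fold change above 0 (median 0.17).

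Receptor tyrosine kinases were called in 21 of 56 tested (37.5% beside 12.5% of all genes), 11 higher and 10 lower. AXL, the GAS6 receptor, was at 65.7 and 68.0 CPM in NEG and 147 and 144 CPM in POS (log2 fold change 1.12, SE 0.077, adjusted p = 1.34e-09). RET, the GDNF receptor kinase, was at 14.4 and 14.3 CPM and 2.06 and 2.40 CPM (log2 fold change -2.69, SE 0.16, adjusted p = 4.35e-10). FLT1, a VEGF receptor, was at 0.198 and 0.266 CPM and 2.40 and 1.88 CPM, the neurotrophin receptor gene NTRK2 at 0.790 and 0.555 CPM and 3.84 and 3.07 CPM, and PDGFRB at 0.367 and 0.266 CPM and 1.14 and 1.09 CPM, all higher in POS and all below 4 CPM. Lower in POS were the ephrin receptor genes EPHA7 (2.74 and 2.39 CPM in NEG, 0.680 and 0.570 CPM in POS) and EPHB6 (9.46 and 9.03 CPM and 2.94 and 3.12 CPM), besides EPHB3 above, and the lymphatic VEGF receptor gene FLT4 (44.2 and 46.9 CPM and 21.0 and 23.6 CPM). ALK was lower and KIT, KDR and ERBB4 higher, each at 2.74 CPM or less, while FGFR2 and FGFR3 were not called. With offsets for GC content FLT4 and ALK were no longer called (log2 fold changes -0.86 and -0.94). AXL, RET, FLT1, NTRK2, PDGFRB, EPHA7, FLT4, ALK, KIT, KDR, ERBB4, FGFR2 and FGFR3 are kinases that the study singled out from this series, so their calls are not independent evidence.

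Among axon guidance genes the semaphorins that were called rose, and more of their receptors fell than rose. Of 20 semaphorin genes 6 were upregulated and 14 not called, although 7 were lower at an unadjusted p under 0.05, and of 11 receptor genes 1 rose and 3 fell. Over all 56 axon guidance genes tested 30.4% were called, beside 12.5% of all genes. SEMA3C, a secreted class 3 semaphorin, was at 42.9 and 43.3 CPM in NEG and 227 and 200.3 CPM in POS (log2 fold change 2.31, SE 0.086, adjusted p = 3.41e-13). SEMA3A was at 2.40 and 2.39 CPM and 20.02 and 18.7 CPM, SEMA3D at 1.64 and 2.05 CPM and 15.1 and 13.2 CPM, and SEMA3E at 1.16 and 0.869 CPM and 11.1 and 9.82 CPM (log2 fold changes 3.01, 2.93 and 3.38). These 4 genes lie near each other on chromosome 7 in a block where many genes were higher in POS (below). Of the plexins, which transduce semaphorin signals, PLXNA2 rose from 7.54 and 7.48 CPM to 24.8 and 25.0 CPM, whereas PLXND1 fell from 65.1 and 63.6 CPM to 26.1 and 27.97 CPM and PLXNB3 from 70.5 and 93.7 CPM to 15.9 and 26.8 CPM (log2 fold changes 1.73, -1.25 and -1.95). EFNB3, a transmembrane ephrin, rose from 0.847 and 0.724 CPM to 21.1 and 22.0 CPM (log2 fold change 4.78, SE 0.16, adjusted p = 4.66e-14).

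Of 15 folate and serine genes 2 rose, ALDH1L2 among them, and 1 fell, ALDH1L1, the cytosolic counterpart of ALDH1L2 (3 of 15 called, beside 12.5% of all genes). ALDH1L1 was at 0.339 and 0.483 CPM in NEG and 0.0400 and 0 CPM in POS, at least 6.11-fold lower against the floor. Of 30 ATF4 targets 2 rose and 1 fell, which is 10.0% called beside 12.5% of all genes: asparagine synthetase ASNS was at 176 and 168 CPM and 361 and 357 CPM, NUPR1 at 18.4 and 16.9 CPM and 46.1 and 45.8 CPM, and the mTORC1 inhibitor gene DDIT4 at 260.3 and 276 CPM and 99.9 and 122 CPM. Of 31 glycolysis and hypoxia genes 1 rose and 4 fell (16.1% called), and 26 of the 31 had a negative log2 fold change (median -0.43). SLC2A3, a glucose transporter, fell from 101 and 99.7 CPM to 12.6 and 10.9 CPM (log2 fold change -3.09, SE 0.093, adjusted p = 2.57e-14), the carbonic anhydrase gene CA12 from 124 and 124 CPM to 56.2 and 54.4 CPM, and the aldolase gene ALDOC from 52.0 and 47.2 CPM to 17.5 and 17.2 CPM. Adrenomedullin, ADM, rose from 27.2 and 29.4 CPM to 67.2 and 75.8 CPM. Of 25 cholesterol synthesis genes 2 fell (8.0%), among them HMGCS1 from 213 and 207 CPM to 93.1 and 83.1 CPM. In the respiratory chain 1 of 75 nuclear genes rose and 3 fell (5.33% called). Of these 3, SDHA (725 and 706 CPM in NEG, 294 and 301 CPM in POS) and NDUFS6 (197 and 212 CPM and 48.5 and 61.7 CPM) lie on the short arm of chromosome 5. None of the 13 mitochondrially encoded respiratory genes was called by edgeR or DESeq2, or passed an unadjusted p of 0.05 (0 genes), and their median log2 fold change of -0.27 moved to -0.65 without POS replicate 1 and to 0.033 without POS replicate 2. None of 32 G2/M and mitosis genes was called by either tool, with 4 higher and 12 lower at an unadjusted p under 0.05. Their median of -0.14 was -0.038 without POS replicate 2 and -0.21 without POS replicate 1. Of 35 DNA replication genes 2 were called, both higher (5.71%), among them MCM7 on chromosome 7.

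Calls were uneven along the genome. Of 123 genes tested that start below 46 Mb on chromosome 5 (GRCh37), its short arm, 68 were downregulated and 2 upregulated, which is 55.3% lower beside 6.06% of all genes, with a median log2 fold change of -1.08. In 54 of the 68 the POS libraries each lay at least 1 log2 unit below both NEG libraries. The median was -0.98 in POS replicate 1 and -1.14 in POS replicate 2, each against the mean of the NEG libraries. CCT5, a subunit of the TRiC chaperonin, was at 954 and 932 CPM in NEG and 335 and 318 CPM in POS (chromosome 5, 10250041 to 10266501). RPL37, SDHA, NDUFS6, NKD2 and HMGCS1, named above, lie on this arm too. On the long arm 42 of 605 genes were downregulated (6.94%) and 65 upregulated (10.7%). On chromosome 7, between 70 and 100 Mb, 61 of 159 genes were upregulated (38.4% beside 6.47% of all genes) and 4 downregulated, with a median log2 fold change of 0.87, and elsewhere on chromosome 7 10.0% were upregulated. Both regions were picked after the values were seen. The block on chromosome 7 holds the 4 SEMA3 genes, MCM7, ASNS, ELAPOR2 (0.480 and 0.434 CPM in NEG, 19.9 and 17.0 CPM in POS) and the chromatin remodeller gene BAZ1B (155 and 162 CPM and 374 and 308 CPM). In low serum the medians were -1.15 for the short arm of chromosome 5 and 0.86 for the block on chromosome 7. Of the 68 short-arm genes lowered in standard serum 58 were also DEGs downwards in low serum, beside 461 of the 934 downregulated genes in all (49.4%). In MDA-MB-231 in standard serum, 3 of the 123 genes of the short arm of chromosome 5 were lower and 13 higher (median 0.086), where 2.72% of all genes were lower and 4.96% higher. DNA copy number was not measured.

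**Figure D4:**
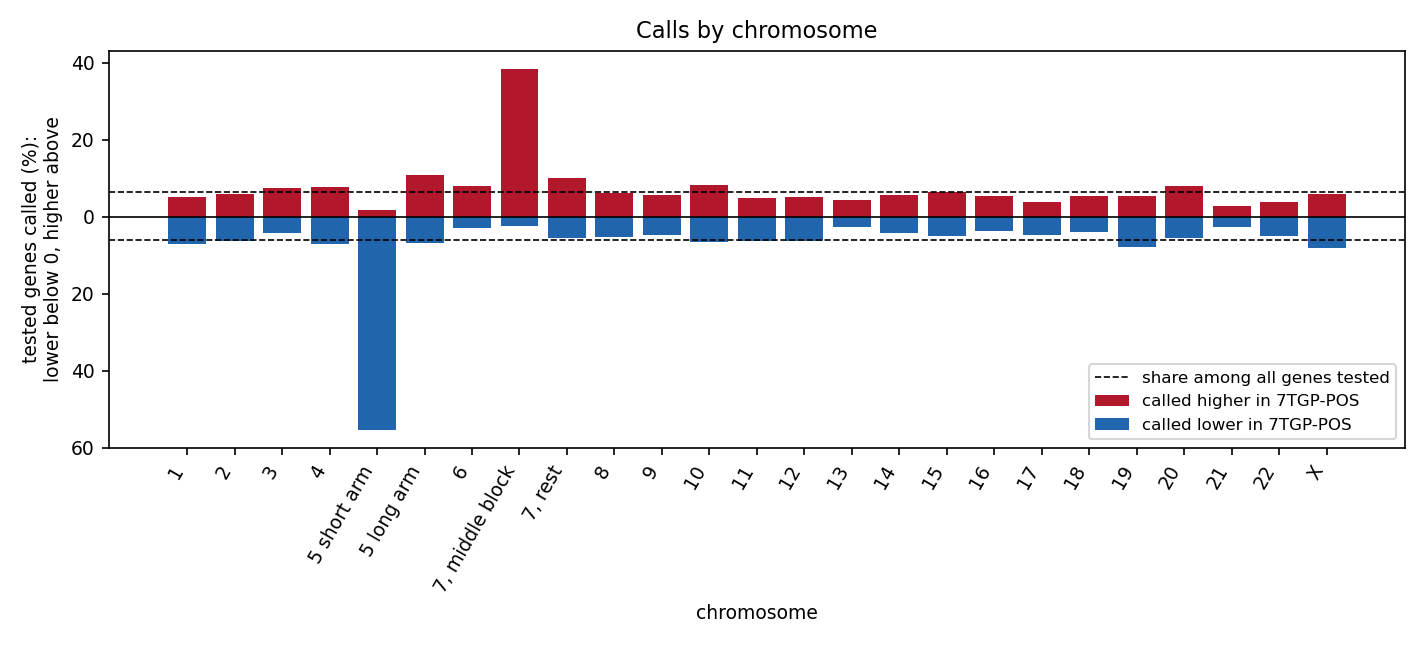
Share of tested genes called higher (red, upwards) or lower (blue, downwards) in 7TGP-POS by chromosome, with chromosomes 5 and 7 divided, and dashed lines at the shares among all genes tested. The short arm of chromosome 5 reaches 55.3% lower and the middle block of chromosome 7 (70 to 100 Mb) 38.4% higher.

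The POS libraries were read one by one, since they differed along gene GC content. Over the 12296 genes that averaged 1 CPM or more, the log2 ratio of POS replicate 1 to POS replicate 2 had r = -0.68 with the GC content of the transcript, whereas the corresponding r was -0.13 in NEG (genes are not independent replicates). From the lowest to the highest quintile of GC content, the median difference to NEG went from 0.26 to -0.38 in POS replicate 1 and from 0.10 to -0.061 in POS replicate 2. There were 135 upregulated and 72 downregulated DEGs in the lowest quintile (2460 genes) and 98 and 187 in the highest (2459 genes). With offsets that remove the GC trend of each library these became 100 and 88 in the lowest and 131 and 136 in the highest quintile, while the total moved from 1932 to 1881. Where no library had fewer than 10 counts, the DEGs in which the POS libraries differed most were AATK (0.734 and 0.990 CPM in NEG, 1.88 and 4.02 CPM in POS), SPRN (5.62 and 5.55 CPM and 0.200 and 0.496 CPM), SLC25A34 (0.932 and 1.18 CPM and 0.240 and 0.570 CPM), LRAT (2.23 and 1.91 CPM and 0.920 and 0.397 CPM) and the complement factor D gene CFD (3.39 and 5.07 CPM and 1.32 and 2.88 CPM). For IFI27 the difference from NEG was -5.13 in POS replicate 1 and -5.39 in POS replicate 2, for COL3A1 5.78 and 5.78, and for CXCL8 2.46 and 2.40 (log2 CPM with a prior count of 2, which draws low values together).

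**Figure D5:**
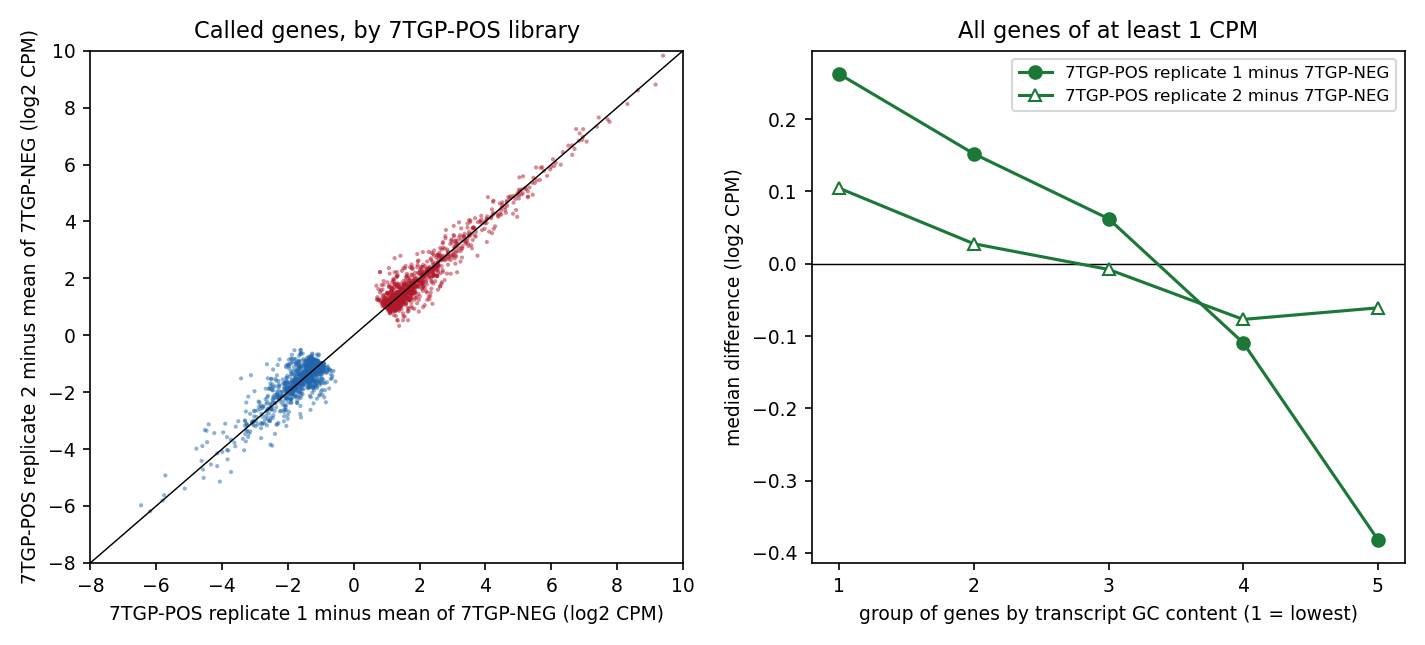
Left, difference of each 7TGP-POS library from the mean of the 7TGP-NEG libraries (log2 CPM, prior count 2) for the 1932 DEGs, replicate 1 on the x axis and replicate 2 on the y axis, red for higher and blue for lower in 7TGP-POS, with the line of equality. Right, median of the same differences over genes of at least 1 CPM in 5 groups of rising transcript GC content. Each DEG lies on the same side of 0 in both libraries, and from the lowest to the highest GC group the medians go from 0.26 to -0.38 in replicate 1 and from 0.10 to -0.061 in replicate 2, where the group next to the highest is lowest (-0.077).

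Against MDA-MB-231 in standard serum, where 1185 genes (7.69%) were DEGs, many genes changed differently. The change differed between the lines, by at least 1 log2 unit at an adjusted p under 0.05 in the interaction test, for 2132 of 15414 genes (13.8%), and 1040 of the 1932 MDA-MB-436 DEGs were among them. Of 320 genes called in both lines, 173 moved in the same and 147 in opposite directions. IGFBP5, FBLN1, INHBA, MMP2 and CXCL8 rose in both, by 5.03, 3.24, 4.46, 3.35 and 2.43 in MDA-MB-436 and by 4.33, 2.08, 5.23, 4.55 and 2.58 in MDA-MB-231. PTGS2, the inducible cyclooxygenase, went from 14.7 and 13.7 CPM to 6.86 and 6.20 CPM in MDA-MB-436 (log2 fold change -1.12) and rose by 3.37 in MDA-MB-231. PMEPA1, a TGF-β target, went the other way, from 9.06 and 8.86 CPM to 39.0 and 40.2 CPM in MDA-MB-436, with a log2 fold change of -1.27 in MDA-MB-231. The differences between the lines were -4.49 for PTGS2 and 3.42 for PMEPA1 (adjusted p = 2.51e-14 and 3.94e-13).

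Of the MDA-MB-436 DEGs of standard serum, 1106 were DEGs of the same direction in low serum, 645 higher and 461 lower, which is 57.2% of the 1932 of standard serum and 65.0% of the 1702 of low serum (10.6% of 16069 genes). Among the genes with large changes in both were SV2A (log2 fold changes 6.28 and 6.94), LAMA4 (5.14 and 5.08), SLC2A3 (-3.09 and -3.10), SH3BGRL (-4.69 and -4.76) and DKK1 (1.78 and 2.10). Others changed in standard serum and had small values in low serum, among them IL6 (1.40 and -0.40), SOCS3 (-1.26 and -0.031), ID1 (-2.09 and -0.49) and the abundant complement gene C1R (-1.48 and -0.27).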

How the data were processed

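RNA was measured by bulk RNA-Seq (stranded TruSeq mRNA libraries in standard serum). The authors aligned reads to hg19 with STAR 2.6.1a per the labels' processing notes, counted them per Gencode v19 gene, and deposited whole counts without normalization, and TPM values. Samples were grouped by title. Here counts of 15414 protein-coding genes (biotypes from Gencode v44 lifted to GRCh37) with at least 10 summed counts were fitted with edgeR 4.0.16 (R 4.3.3): TMM scaling, 4 groups over 8 standard serum libraries, robust quasi-likelihood test. CPM are TMM-scaled. Low serum libraries, which by the study's methods were depleted of ribosomal RNA, prepared with another kit and run on another sequencer, were fitted separately. DESeq2 1.42.0, limma 3.58.1 on the deposited TPM, other filters and GC offsets over 20 groups of genes served as alternatives. The 29 gene lists, the comparison and the naming rule were chosen with earlier results of these data known. The rule named list members with the smallest adjusted p, the largest and most abundant changes, genes whose POS libraries differed, genes opposite in MDA-MB-231, and kinases the study names. ISG15, MX1, XAF1, OAS2, TRIM22, IFITM1, CLDN5 and PTPN20B were named after their values were seen. In a simulation of this fit, 99.5% of 200 genes changed 4-fold were called, with 1 of 15099 others. The changed genes averaged more than 1 CPM, and apart from the change all libraries shared 1 mean per gene. The simulated counts held no GC trend and no difference between lines, so the result does not cover calls at lower CPM or along GC content. IKBKE, SOD2, MMP12, PCDH20, MMP28 and CCL5 had no match by identifier and were not analysed here. Some genes that the rule named are not reported here. Replicates of a subline differed by more than counting noise and were used as separate cultures. Counting intervals and floors cover counting error alone.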

Additional observations from a re-analysis of the deposited data

Results flagged for a closer look

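The change from 7TGP-NEG to 7TGP-POS in standard serum differed between MDA-MB-436 and MDA-MB-231 by the interaction test (edgeR, adjusted p under 0.05 and a difference of at least 1 log2 unit) for 2132 genes, of which 1040 were DEGs of MDA-MB-436. For 147 genes the lines were called in opposite directions, each with a difference that passed this test. The values that follow are MDA-MB-436 minus MDA-MB-231 log2 fold changes. Among interferon-stimulated genes the difference was -6.31 for IFI27, -6.07 for IFI44L and -2.97 for IFIT1. Among chemokines and cytokines it was -6.71 for CXCL10, -5.60 for CXCL5, -2.81 for IL1B and -1.67 for IL6, the last pair rising in both lines and less in MDA-MB-436. Of the genes lower in MDA-MB-436 and higher in MDA-MB-231, SH3BGRL differed by -5.72, PTGS2 by -4.49 and the lysosomal protease gene CTSS by -3.80. Of those higher in MDA-MB-436 and lower in MDA-MB-231, PMEPA1 differed by 3.42, PLXNA2 by 3.23, CDH4 by 3.21, LAMB1 by 2.85 and CMTM7 by 2.50. Each line gave 1 POS and 1 NEG subline, so a difference between lines and one between particular sorted sublines cannot be told apart. By the study's methods each line also had its own culture medium, which cannot be told apart from the line either.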

How the results depend on the processing

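The count of 1932 DEGs (998 higher, 934 lower) stayed within 1.5 times under DESeq2, DESeq2 size factors, other low-count filters, GC offsets, all biotypes and the 4 MDA-MB-436 libraries alone. It moved to 975 (538 higher, 437 lower) when tested against a fold change of 2, to 7631 (4028 and 3603) with no limit on the fold change, and to 941 (542 and 399) with limma-trend on log2(TPM + 1), where 827 of the 1413 genes separated in every library were called. Leaving out each replicate in turn gave 1722 to 1982 DEGs (896 to 984 higher, 819 to 998 lower), 1317 to 1362 genes separated in every library, 1962 to 2261 interaction calls (952 to 1068 higher, 997 to 1193 lower) and 1560 to 1620 DEGs in low serum (911 to 948 and 635 to 686). In these fits the lone library of a subline was taken to vary like the other groups. Separation was not assessed anew in them, and their counts of separated genes are the members of the 1413 that kept a call.

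The replicate numbers come from the titles alone. Over 12296 genes, the deviations of same-numbered NEG and POS libraries had r = 0.22. The corresponding r was 0.19 within MDA-MB-231 and between -0.027 and 0.14 for groups of different lines. With 2 replicates per subline these values cannot decide whether the numbers pair the cultures, and the main fit did not pair them. With a replicate block 1938 genes were called (999 higher), 1906 of them shared, and with GC offsets and the block 1870.

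Of 165 genes named in the text none changed direction with a call. With GC offsets ALK, ASNS, CFD, CLDN5, FLT4, PTPN20B, RGS5 and SP5 lost their call. CLDN5 and PTPN20B also lost theirs with no low-count filter, with all biotypes, with DESeq2, which did not call SFRP4 either and gave SOSTDC1 no adjusted p, and without any 1 of the 4 libraries. Leaving out POS replicate 1 ended 11 calls, besides these 2 those of BAZ1B, CFD, ERBB4, FLT4, KDR, RNF43, SLC25A34, SOSTDC1 and SP5, and LGR5 was then called (-2.58). Without POS replicate 2, 2 calls ended, and NKD1 and MX1 were called (log2 fold changes -1.03 and 1.07). Leaving out NEG replicate 1 ended 4 calls, RNF43 and SOSTDC1 among them, and leaving out NEG replicate 2 ended 6, with CFD, FLT4, RGS5 and SP5. The test against a fold change of 2 ended 31 of the calls, limma-trend on log2(TPM + 1) 33 and on log2(TPM + 0.1) 6, and with the 4 MDA-MB-436 libraries alone CFD was not called. The causes were not tested. Genes under about 1 CPM rest on few counts.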
